A study of Arabidopsis thaliana with 6 samples.

Results

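The 50 genes described here encode proteins of the cytosolic ribosome of Arabidopsis thaliana. They were chosen by gene identifier as listed large-subunit and small-subunit ribosomal protein genes, by their annotation rather than by a measured value. All 50 were found among the 32678 genes of the deposited tables, 30 of the large and 20 of the small subunit. They fall into 26 protein families: 15 families are represented by 2 or more listed paralogues (39 genes in all) and 11 by a single gene. They are a part of the ribosomal protein genes of the plant: another 160 genes in the tables carry a cytosolic ribosome annotation in the reference. The reference annotation calls each of the 50 a structural constituent of the ribosome, and 17 of the 50 names appear in it. The letters of the other names were not checked. AT3G05590, here RPL18C, is only RPL18 in the reference, so the gene identifier decides.

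The libraries came from whole seedlings on day 5 in white light, with 3 libraries of the csu6-2 mutant and 3 of Col-0, the wild-type accession. The name csu6-2 denotes an allele of COP1 SUPPRESSOR 6, and COP1 is a ubiquitin ligase that holds back light-dependent development. Neither the lesion nor the locus is stated in the labels, and the targeted gene was therefore not checked. Nothing in the labels says whether the 3 libraries of a genotype were grown separately, so the p-values measure the spread between these libraries, which may be technical.

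A cytosolic ribosome joins a small subunit, which holds the mRNA and reads its codons, to a large subunit, which forms the peptide bond and passes the new protein through its exit tunnel. Nearly every ribosomal protein of Arabidopsis is encoded by several paralogous genes, so a ribosome can be assembled from alternative copies of the same protein. The mRNAs of these genes are among the most abundant in growing tissue, and their promoters often carry site II elements and telo-boxes, short motifs shared with other genes of dividing and growing cells. Translation of many of the mRNAs, and phosphorylation of the protein S6, respond to light and sugar through the TOR kinase and its S6 kinases.

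Levels are given in RPKM, read counts scaled to transcript length and to the reads of the library, so they can be compared between genes. Depth was estimated at 29.5 to 37.4 M reads (M, mega) per csu6-2 library and 27.7 to 43.3 M reads per Col-0 library, from the steps in the lowest values. At that depth the least abundant member, RPP0A, rested on at least 168 estimated reads in each library. Libraries of the same genotype correlated at 0.991 to 0.993 (Pearson's r of log2(RPKM + 1) across tested genes, which are not independent replicates), and libraries of different genotype at 0.983 to 0.989. Markers of green tissue were abundant, as whole seedlings grown in light would have them, and the summed level of 6 seed storage markers was 0.5 to 3.12 RPKM in csu6-2 and 0.89 to 1.52 RPKM in Col-0. In bulk RNA from whole seedlings, fewer cells of a type and less RNA per cell cannot be told apart.

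The 50 genes were abundant and covered a 241-fold range of levels. Their median level over all libraries was 312 RPKM, against 11.1 RPKM for the 18885 genes tested. RPS8A (AT5G20290), a small-subunit protein of a single listed gene, was the most abundant, with 958, 975 and 993 RPKM in csu6-2 and 1035, 1030 and 1030 RPKM in Col-0. All 3 mutant libraries lay below the 3 Col-0 libraries, and the 95% interval of the ratio included 1 (0.945-fold, 0.85 to 1.05). RPL23C and RPL19A followed in the order of levels, and the ranges of these neighbours overlapped, with RPL19A at 823 to 835 RPKM in csu6-2 and 900 to 902 RPKM in Col-0 and RPL23C at 719 to 936 RPKM in csu6-2 and 918 to 1055 RPKM in Col-0. At the other end stood RPP0A (AT2G40010), a minor copy of the stalk protein P0 that binds the elongation factors on the large subunit, with 3.87, 3.86 and 3.65 RPKM in csu6-2 and 4.62, 4.86 and 4.14 RPKM in Col-0. Only 8 members had a mean under 100 RPKM, and 3 of those, RPP0A, RPSaB and RPL10B, were under 20 RPKM.

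**Figure D1:**
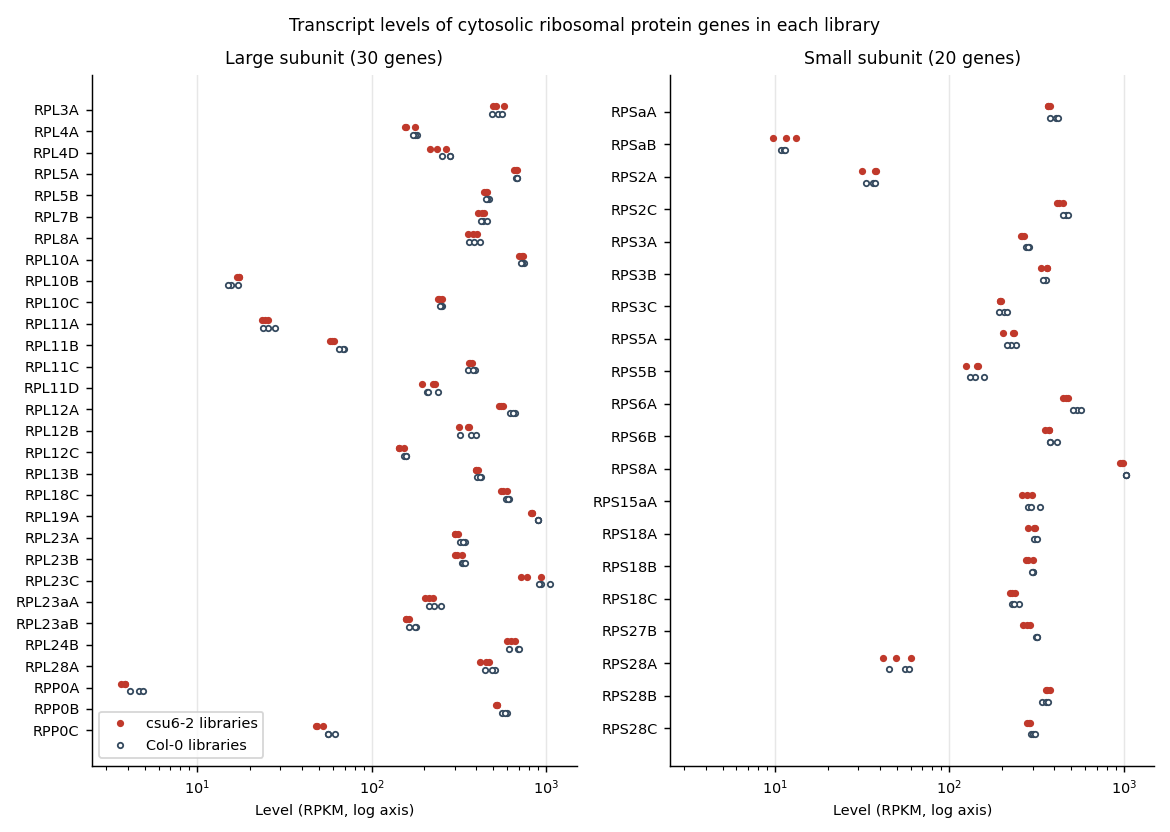
Level of each of the 50 genes in RPKM (log axis) in the 3 csu6-2 libraries (filled points) and the 3 Col-0 libraries (open points), for 30 large-subunit genes on the left and 20 small-subunit genes on the right. The points of both genotypes sit close together for each gene, while the genes range from RPP0A, at 3.65 to 4.86 RPKM, to RPS8A, at 958 to 1035 RPKM.

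The main comparison asked whether these genes differed in transcript level between csu6-2 and Col-0. No member passed the test. All 50 passed the filter on low values (at least 1 RPKM in 3 libraries), and limma on log2(RPKM + 1) with Benjamini-Hochberg adjustment over all tested genes called 0 of 50 higher and 0 of 50 lower at an adjusted p of 0.05. Among all tested genes, 3.55% were called higher and 9.38% lower, 12.9% in either direction; among the 1278 tested genes with a mean of at least 100 RPKM, the level of most members, 18.5% were called. The smallest adjusted p of a member was 0.058, for RPL12A. Without adjustment, 7 of 50 (14%) were lower at p under 0.05 and 0 were higher, against 20.3% and 7.58% of all tested genes.

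The sizes of the differences were small. The fitted csu6-2 over Col-0 ratio ran from 0.831-fold for RPL23C to 1.08-fold for RPL10B, on the log2(RPKM + 1) scale. The 95% intervals of all 50 stayed within 1.5-fold in either direction, as did those of 84.4% of all tested genes and 86.8% of those at 100 RPKM or more. The lowest bound of a member was 0.715-fold (RPL23C) and the highest 1.21-fold (RPL10B). After the rescaling described next, all 50 and 85.8% of all tested genes had an interval within 1.5-fold. The members' median log2 change was -0.07, the same to 2 decimals as that of all tested genes (-0.07). On the deposited scale 45 of 50 members (90%) had a log2 change below 0, against 65.2% of all tested genes. This balance depended on how libraries were scaled: after median-of-ratios scaling, which moved the median of all tested genes by 0.066, 27 of 50 (54%) lay below 0, against 50.3% of all tested genes, and 0 of 50 were called, against 5.56% called higher and 5.97% lower (11.5% in all) of the tested genes; without adjustment 1 of 50 (2%) had p under 0.05, against 26.4%.

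**Figure D2:**
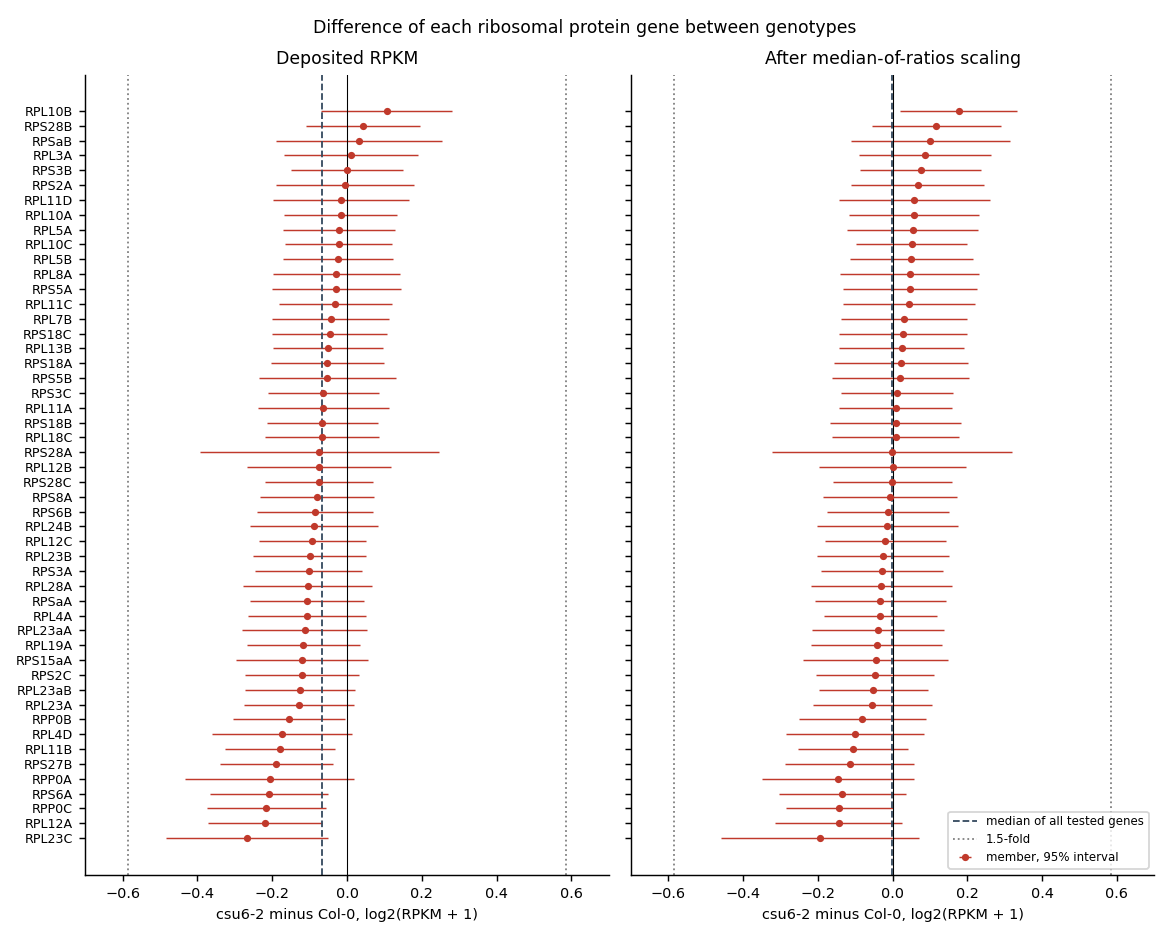
Difference between csu6-2 and Col-0 in log2(RPKM + 1) for each of the 50 genes (points, with 95% intervals from limma), on the deposited RPKM scale (left) and after median-of-ratios scaling (right), with the median of all tested genes dashed and 1.5-fold dotted. The genes centre on the dashed line in both panels, and every interval stays inside the dotted lines.

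The members also varied little from library to library. Their SD over the 6 libraries had a median of 0.084 on the log2 scale, against 0.141 for all tested genes and 0.118 for those at 100 RPKM or more. In 16 of 50 members (32%) all 3 csu6-2 values lay below all 3 Col-0 values, a pattern that 23% of all tested genes showed; in 0 members did all 3 lie above, against 9.04% of all tested genes. After median-of-ratios scaling the counts were 6 below (12%) and 3 above (6%; RPL10B, RPL10C and RPS3B), against 15.8% and 15.6% of all tested genes.

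Taken as a sum, the 50 genes made up 2.06, 2.02 and 2.00% of the summed RPKM in csu6-2 libraries and 2.18, 2.18 and 2.12% in Col-0 libraries. The mutant values all lay below the Col-0 values, 2.03 ± 0.033% against 2.16 ± 0.037% (SD, n = 3 each), with an exact permutation p of 0.1, two-sided, the smallest that 3 against 3 libraries allow. The difference was not seen on the other scale: the sum divided by median-of-ratios size factors was 17147 ± 632 in csu6-2 and 17331 ± 214 in Col-0 (SD, n = 3 each; exact permutation p = 0.6), a change of -1.06% in place of -6.17%. The 160 other cytosolic ribosome genes gave 5.03 ± 0.085% in csu6-2 and 5.35 ± 0.098% in Col-0 (SD, n = 3 each; exact permutation p = 0.1) on the deposited scale. The large-subunit sum over the small-subunit sum was 1.84 ± 0.021 in csu6-2 and 1.85 ± 0.024 in Col-0 (SD, n = 3 each; exact permutation p = 0.6), so the balance between the subunits differed by less than the spread between libraries.

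**Figure D3:**
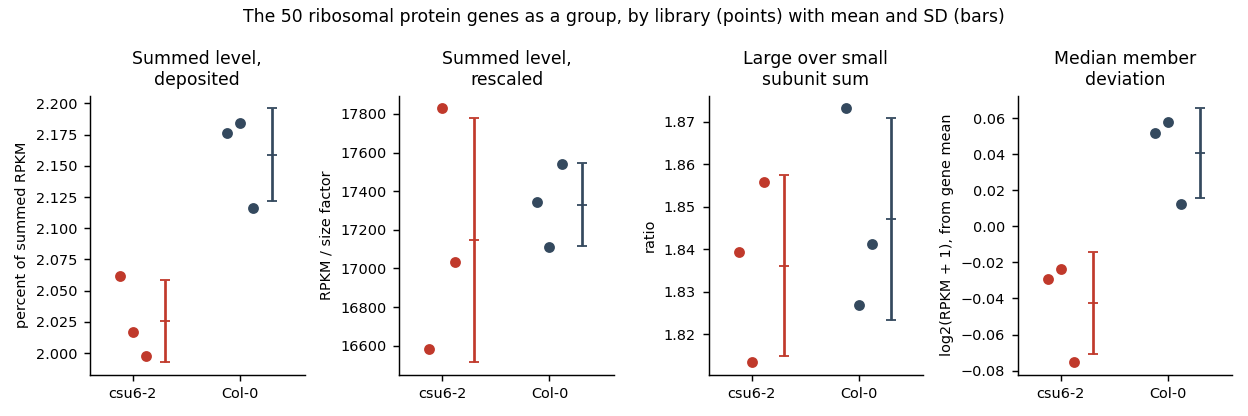
The 50 genes as a group in each library (points) with mean and SD (bars), csu6-2 left of Col-0; the axes do not start at 0. The summed level as a percentage of all RPKM lies lower in csu6-2 (2.03% against 2.16%), while the rescaled sum and the ratio of large-subunit to small-subunit sums overlap between genotypes; the last panel gives the median member's deviation from its mean over the 6 libraries.

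In the large subunit, RPL23C (AT3G04400) had the lowest ratio. The L23 proteins lie where the subunits meet. RPL23C had 719, 776 and 936 RPKM in csu6-2 and 941, 918 and 1055 RPKM in Col-0. The groups overlapped, because csu6-2 replicate 3 lay above the lowest Col-0 library. Its log2 change was -0.27 ± 0.10 (SE; limma adjusted p = 0.099), and without csu6-2 replicate 3 it was -0.38 with a limma adjusted p of 0.019, the 1 case in which leaving out a library brought a member past the threshold. Its paralogues RPL23A (303, 300 and 314 RPKM in csu6-2; 324, 344 and 335 RPKM in Col-0) and RPL23B (302, 311 and 332 RPKM in csu6-2; 330, 336 and 346 RPKM in Col-0) had log2 changes of -0.13 and -0.10, and neither was called. On the deposited scale RPL23A did not overlap between genotypes and RPL23B did, and after rescaling both overlapped.

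The L12 proteins form the base to which the stalk of the large subunit attaches. RPL12A (AT2G37190) had 554, 540 and 564 RPKM in csu6-2 and 620, 662 and 650 RPKM in Col-0, without overlap, also after median-of-ratios scaling. Its log2 change was -0.22 ± 0.071 (SE; limma adjusted p = 0.058), and -0.14 with a limma adjusted p of 0.26 after rescaling. RPL12B (360, 357 and 319 RPKM in csu6-2; 373, 400 and 321 RPKM in Col-0) overlapped between genotypes, and RPL12C (145, 153 and 143 RPKM in csu6-2; 158, 154 and 157 RPKM in Col-0) lay lower in all mutant libraries, with log2 changes of -0.07 and -0.09. After rescaling RPL12C overlapped, with a log2 change of -0.02. For the stalk protein P0, RPP0A, RPP0B and RPP0C did not overlap between genotypes on the deposited scale, where 23% of all tested genes lay lower in all mutant libraries. Their log2 changes were -0.21, -0.16 and -0.22, none of them called (limma adjusted p of 0.22, 0.17 and 0.074). After rescaling they were -0.15, -0.08 and -0.14 (limma adjusted p of 0.35, 0.55 and 0.19), and RPP0B, the most abundant copy, overlapped.

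The L10 protein sits near the site where peptide bonds form, and Arabidopsis RPL10A is also a target of the receptor kinase NIK1. The most abundant copy, RPL10A, had 731, 737 and 703 RPKM in csu6-2 and 749, 729 and 720 RPKM in Col-0. RPL10C had 253, 244 and 241 RPKM in csu6-2 and 253, 250 and 245 RPKM in Col-0. Both overlapped, with a log2 change of -0.02 each. The rare copy RPL10B (AT1G26910) was the member with the highest ratio: 17.3, 17.4 and 17.0 RPKM in csu6-2 and 15.6, 17.2 and 15 RPKM in Col-0, which overlapped on the deposited scale and not after rescaling. Its log2 change was 0.11 ± 0.081 (SE; limma adjusted p = 0.43), and 0.18 with a limma adjusted p of 0.14 after rescaling.

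The other large-subunit members had log2 changes between -0.18 and 0.01, and none was called. L5 and L11 carry the 5S ribosomal RNA together. RPL5A and RPL5B stood at -0.02 each, and the 4 L11 genes ran from -0.18 (RPL11B, at 59.5 ± 1.47 RPKM in csu6-2 and 67.5 ± 2.26 RPKM in Col-0; SD, n = 3 each) to -0.02 (RPL11D). RPL3A, whose protein reaches into the peptidyl transferase centre, stood at 0.01, and RPL8A, another protein near that centre, at -0.03. RPL24B, known as SHORT VALVE1 for its mutant phenotype and needed for reinitiation after upstream reading frames, stood at -0.09. At the mouth of the exit tunnel, RPL23aA and RPL23aB stood at -0.11 and -0.13.

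In the small subunit, RPS6A (AT4G31700) had the lowest ratio. S6 is the ribosomal protein that S6 kinases phosphorylate. RPS6A had 468, 480 and 451 RPKM in csu6-2 and 540, 567 and 512 RPKM in Col-0, without overlap under either scaling. RPS6B (AT5G10360) had 374, 372 and 354 RPKM in csu6-2 and 377, 412 and 379 RPKM in Col-0, also without overlap on the deposited scale, though the nearest libraries lay less than 3 RPKM apart. The log2 changes were -0.21 ± 0.073 for RPS6A (SE; limma adjusted p = 0.078) and -0.09 ± 0.071 for RPS6B (SE; limma adjusted p = 0.47).

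The S3 protein lines the channel through which mRNA enters. RPS3A had 260, 266 and 259 RPKM in csu6-2 and 285, 274 and 284 RPKM in Col-0, without overlap on the deposited scale and with overlap after rescaling. RPS3B had 361, 362 and 337 RPKM in csu6-2 and 355, 358 and 345 RPKM in Col-0, and RPS3C had 197, 195 and 194 RPKM in csu6-2 and 207, 214 and 193 RPKM in Col-0; both overlapped. Their log2 changes were -0.10 for RPS3A, 0.00 for RPS3B and -0.06 for RPS3C, with none called. S28 lies near the point where mRNA leaves. RPS28A had 49.5, 60.6 and 41.8 RPKM in csu6-2 and 55.4, 58.7 and 45.2 RPKM in Col-0, the widest scatter among the members (SE of 0.14 on the log2 scale). RPS28B (AT5G03850) had 361, 358 and 378 RPKM in csu6-2 and 338, 358 and 369 RPKM in Col-0, and RPS28C had 286, 280 and 289 RPKM in csu6-2 and 293, 300 and 308 RPKM in Col-0. On the deposited scale the RPS28B values overlapped and the RPS28C values did not, and after rescaling both overlapped. The log2 changes on the deposited scale were 0.04 for RPS28B and -0.07 for RPS28C, with limma adjusted p of 0.74 and 0.51.

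The Sa protein is related to the animal laminin receptor precursor, and a single copy supplied nearly all of the family's transcripts. RPSaA had 379, 369 and 370 RPKM in csu6-2 and 408, 379 and 418 RPKM in Col-0, and RPSaB had 11.6, 9.70 and 13.1 RPKM in csu6-2 and 10.8, 11.2 and 11.4 RPKM in Col-0. Both overlapped between genotypes, with log2 changes of -0.11 for RPSaA and 0.03 for RPSaB. The remaining small-subunit members ran from -0.19 (RPS27B) to -0.01 (RPS2A), and none was called. Among them were RPS5A, whose loss is known from the Minute-like mutant aml1, at -0.03, and RPS18A, known as POINTED FIRST LEAVES, at -0.05.

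The second question was whether csu6-2 used the paralogues of a family in other proportions. In 13 of the 15 families with several listed genes, a single copy supplied over 50% of the family's summed RPKM. Where only 2 genes are listed, as for S6, 1 of them must do so, so the count says something only of larger families. In S3 and S18, with 3 listed genes each, no copy reached 50%. RPSaA made up 97.2%, RPS2C 92.6%, RPP0B 90.4% and RPL10A 73.4% of their listed families (mean over the 6 libraries), whereas the 3 S18 genes differed by no more than 1.30-fold. These proportions were nearly the same in both genotypes: no share of the 39 genes differed by more than 2.60 percentage points. For 33 of 39 the shares overlapped between genotypes, and for 6 they did not. With 3 against 3 libraries, a share without any genotype difference is separated with a probability of 0.1. Of the 6, RPS6A and RPS6B mirror each other, because their shares add up to the whole family. The 39 shares gave Benjamini-Hochberg adjusted values of 0.65 or more in exact permutation tests, in which 0.1 is the smallest p possible.

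**Figure D4:**
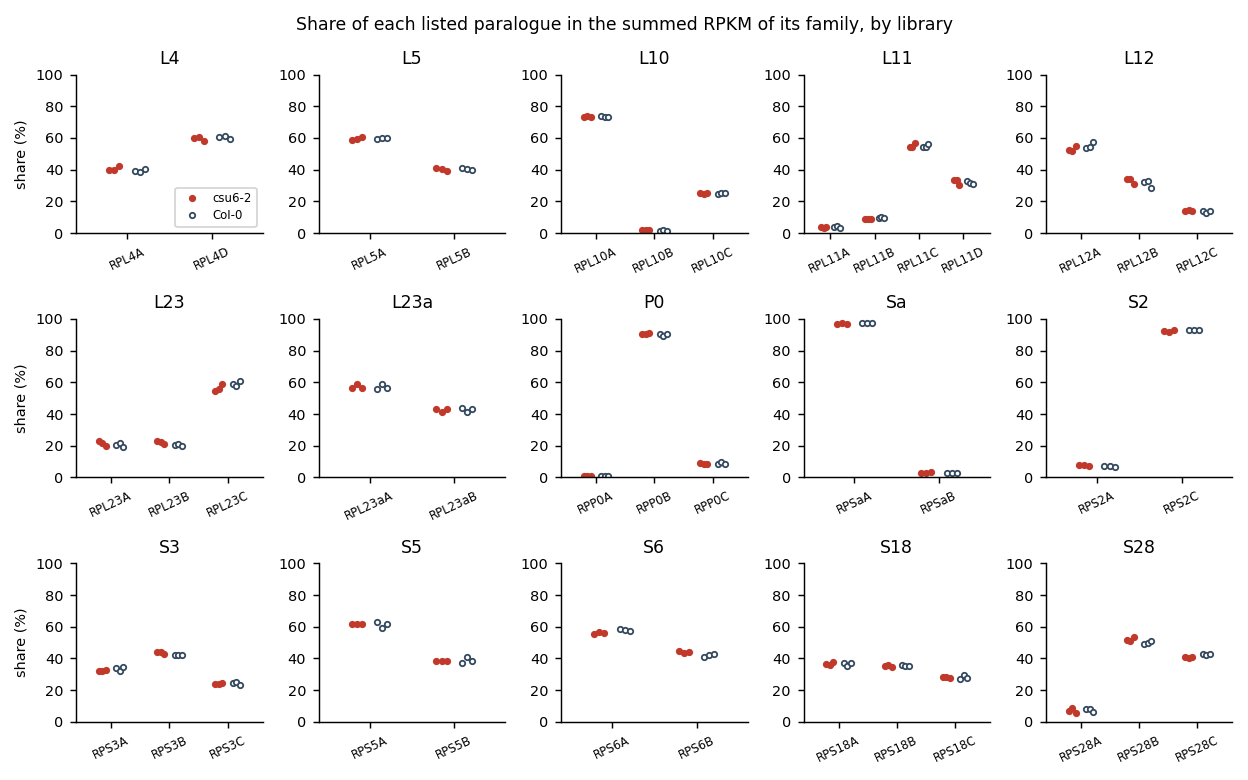
Share of each listed paralogue in the summed RPKM of its family (percent) in csu6-2 libraries (filled, left) and Col-0 libraries (open, right), for the 15 families with 2 or more listed genes. The order of the mean shares is the same in both genotypes, though RPL23A and RPL23B change places between libraries, and no mean share differs by more than 2.60 points.

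Among the shares without overlap, those of the S6 family differed most. RPS6A held 55.6, 56.4 and 56.0% of the family in csu6-2 and 58.9, 57.9 and 57.4% in Col-0, a difference of -2.08 points (exact permutation p = 0.1, two-sided), with RPS6B holding the rest. In the S28 family RPS28B held 51.8, 51.3 and 53.3% in csu6-2 and 49.3, 49.9 and 51.1% in Col-0, and RPS28C held 41.0, 40.1 and 40.8% in csu6-2 and 42.6, 41.9 and 42.6% in Col-0. These differences of 2.03 and -1.75 points had no overlap (exact permutation p = 0.1 each). RPS3B (44.1, 43.9 and 42.6% in csu6-2; 41.9, 42.4 and 42.0% in Col-0) and RPL11B (8.87 ± 0.17% in csu6-2 and 9.78 ± 0.42% in Col-0; SD, n = 3 each) were the other genes without overlap. The larger mean differences of RPL23C (56.5 ± 2.48% in csu6-2 and 59.1 ± 1.67% in Col-0) and RPL12A (52.9 ± 1.83% in csu6-2 and 55.3 ± 2.02% in Col-0; SD, n = 3 each) came with overlapping libraries (exact permutation p = 0.3 each). Coding sequences of the listed paralogues were 70.2 to 92.7% identical over 34 pairs (median 85.7%), with 5 pairs at 90% or more, so reads from the most similar copies may have been divided between them by the authors' counting, and shares of such pairs are uncertain. RPL11B (91.1% identical to RPL11A) and RPS3B (90.4% identical to RPS3A) belong to such pairs. The S6 pair was 84.7% identical.

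The regions upstream of the genes were searched for the motifs known from ribosomal protein promoters, the site II element (TGGGCC or TGGGCT) and the telo-box (AAACCCT), on both strands of the 250 bases before each annotated gene start; a window counts once however many matches, overlapping or not, it holds. A site II element lay in 31 of 50 windows (62%), against 19.2% of 27443 nuclear protein-coding genes, 35.9% of protein-coding genes with a mean of at least 100 RPKM and 70% of the 160 other cytosolic ribosome genes. It lay in 21 of 30 large-subunit and 10 of 20 small-subunit windows. A telo-box lay in 13 windows (26%), against 7.33% of all nuclear protein-coding genes, 8.25% of those at 100 RPKM or more and 25% of the 160 other cytosolic ribosome genes. Both motifs lay in 8 windows (16%), RPL12A, RPS3A and RPS3B among them, against 2.08% of all nuclear protein-coding genes and 21.9% of the 160. The remaining 14 windows (28%) held neither motif, including those of the 3 S28 genes, RPL19A and RPSaB, against 75.6% and 26.9%. A match is a description of the letters, not evidence of binding.

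The windows of the 2 members with the lowest and the 2 with the highest csu6-2 over Col-0 ratio are printed to show how these promoters differ, with site II elements and telo-boxes in capitals, 5′ to 3′ on the strand of the gene (RefSeq, TAIR10.1), trimmed where a neighbouring gene reaches into the window. RPL23C (chr3:1167000-1167249, plus strand) has 3 site II elements, at -113, -58 and -35 from the gene start. RPL12A (chr2:15620157-15620256, minus strand) has 2 site II elements, at -62 and -45, and a telo-box at -9. RPL10B (chr1:9321513-9321649, plus strand) has 2 site II elements, at -112 and -94. RPS28B (chr5:1029132-1029381, minus strand) has neither motif. None of these 4 genes was called, and whether the motifs go with the change between genotypes was not tested.
RPL23C: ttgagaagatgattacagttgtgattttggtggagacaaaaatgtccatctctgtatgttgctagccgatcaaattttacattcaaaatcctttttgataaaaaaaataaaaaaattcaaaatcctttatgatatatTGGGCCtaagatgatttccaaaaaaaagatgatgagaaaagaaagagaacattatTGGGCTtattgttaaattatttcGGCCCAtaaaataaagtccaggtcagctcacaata
RPL12A: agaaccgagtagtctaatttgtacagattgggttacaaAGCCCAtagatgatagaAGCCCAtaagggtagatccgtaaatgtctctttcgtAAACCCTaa
RPL10B: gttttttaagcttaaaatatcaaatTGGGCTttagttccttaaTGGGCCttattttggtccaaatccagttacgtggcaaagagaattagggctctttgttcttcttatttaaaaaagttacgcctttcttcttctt
RPS28B: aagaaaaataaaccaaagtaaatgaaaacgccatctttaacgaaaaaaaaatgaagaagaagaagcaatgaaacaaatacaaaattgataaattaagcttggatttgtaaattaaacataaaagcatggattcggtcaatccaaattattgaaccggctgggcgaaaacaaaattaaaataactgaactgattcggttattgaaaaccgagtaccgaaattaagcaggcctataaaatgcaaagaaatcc

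Other genes of ribosome making and translation were set beside the members. Of 29 ribosome biogenesis genes, 1 was called higher and 0 lower: REIL1, a factor of late 60S maturation in the cytosol, at 31.5, 30.9 and 33.2 RPKM in csu6-2 and 26.5, 25.9 and 27.2 RPKM in Col-0 (log2 change 0.25 ± 0.072 SE, limma adjusted p = 0.034). This call was lost when any 1 of the 6 libraries was left out (limma adjusted p of 0.055 to 0.133). REIL2, the paralogue of REIL1 in this list, lay the other way. It had 34.4, 30.9 and 31.1 RPKM in csu6-2 and 35.7, 43.5 and 37.5 RPKM in Col-0, and was not called (log2 change -0.26, limma adjusted p = 0.060). After median-of-ratios scaling 2 of the 29 were called higher, REIL1 and APUM24, an RNA-binding Pumilio protein (log2 change 0.27, limma adjusted p = 0.024; 0.12 on the deposited scale). Of 11 elongation factor genes, 0 were called higher and 1 lower: EEF1BA1, a nucleotide exchange factor subunit for elongation factor 1, at 23.8, 22.6 and 23.3 RPKM in csu6-2 and 30.4, 34.5 and 30.3 RPKM in Col-0 (log2 change -0.43 ± 0.078 SE, limma adjusted p = 0.0033). The elongation count was the same after rescaling. None of the 15 initiation factor genes and none of the 6 TOR pathway genes, S6K1 and S6K2 included, was called in either direction under either scaling. The median log2 changes were -0.10 for biogenesis, 0.04 for elongation, -0.02 for initiation and 0.02 for the TOR pathway, beside -0.07 for the members and for all tested genes.

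Ribosomal proteins of the plastid, nuclear genes whose products work in the chloroplast, gave another count. Of 16 such genes, 0 were called higher and 4 lower (PRPS5, PRPL4, PRPL9 and PRPL12C), all 16 had a log2 change below 0, and the median was -0.16; of all tested genes 9.38% were called lower and 65.2% lay below 0. With median-of-ratios scaling 0 of the 16 were called in either direction and the median was -0.09. PRPS5 had 397, 408 and 368 RPKM in csu6-2 and 465, 502 and 479 RPKM in Col-0 (log2 change -0.30 ± 0.073 SE, limma adjusted p = 0.017; 0.094 after rescaling). All 4 calls were lost without csu6-2 replicate 3 (limma adjusted p of 0.064 to 0.123) and without Col-0 replicate 2 (0.071 to 0.154). PRPL4, PRPL9 and PRPL12C were also not called without Col-0 replicate 3, PRPL4 and PRPL12C without csu6-2 replicate 2 or with no minimum level (limma adjusted p of 0.056 and 0.086), and PRPL4 without csu6-2 replicate 1. Whether the cytosolic and plastid lists differed from each other was not tested.

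The 160 other genes annotated to the cytosolic ribosome, a comparison added after the data were seen, gave a like picture for the 145 that passed the filter. Their median log2 change was -0.09, and 127 (87.6%) lay below 0, against 65.2% of all tested genes. In 47 (32.4%) all csu6-2 values lay below all Col-0 values, against 23% of all tested genes. After median-of-ratios scaling 82 (56.6%) lay below 0, against 50.3%. Of the 145, 0 were called higher and 6 lower (4.14%), against 3.55% and 9.38% of all tested genes. After rescaling 1 was called higher and 1 lower (0.69% each), against 5.56% and 5.97%. Without Col-0 replicate 2 the count was also 1 higher and 1 lower, and without csu6-2 replicate 1 or 2 it was 3 or 2 lower. RPL3B (AT1G61580), the paralogue of RPL3A (AT1G43170), had 32.8, 34.5 and 29.3 RPKM in csu6-2 and 41.6, 46.8 and 43.2 RPKM in Col-0, without overlap (log2 change -0.44 ± 0.082 SE, limma adjusted p = 0.0043; -0.36 with adjusted p = 0.018 after rescaling). It was called under every alternative listed for the test. RPL3A, the abundant copy among the members, had 578, 516 and 499 RPKM in csu6-2 and 533, 559 and 488 RPKM in Col-0 and overlapped. The difference between the changes of these paralogues was not tested.

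Markers of cell types in the seedlings were compared in the same fit, in which 3.55% of all tested genes were called higher and 9.38% lower. Of 9 markers of dividing and meristem cells 6 were tested, and all 6 had a log2 change below 0, against 65.2% of all tested genes. The summed level of all 9 was 93.9 to 106 RPKM in csu6-2 and 120 to 138 RPKM in Col-0. KNOLLE, a syntaxin of cell division, was called lower (44.9 ± 2.80 RPKM in csu6-2 and 61.6 ± 7.52 RPKM in Col-0, SD, n = 3 each, limma adjusted p = 0.0075). The stem cell marker WUS was at or near 0 in all libraries. Of 5 green tissue markers, 4 were called higher and 0 lower (LHCB6, LHCA3, PSBP1 and PSBO1, the last not called without csu6-2 replicate 2 or Col-0 replicate 2, limma adjusted p of 0.052 and 0.054). The summed level of all 5 was 22753 to 25536 RPKM in csu6-2 and 17097 to 18906 RPKM in Col-0. Of 5 root markers 4 were tested and 0 were called, and the summed level of all 5 was 37.2 to 47.0 RPKM in csu6-2 and 34.97 to 40.9 RPKM in Col-0. The part of these markers in the values of the ribosomal protein genes was not tested.

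**Figure D5:**
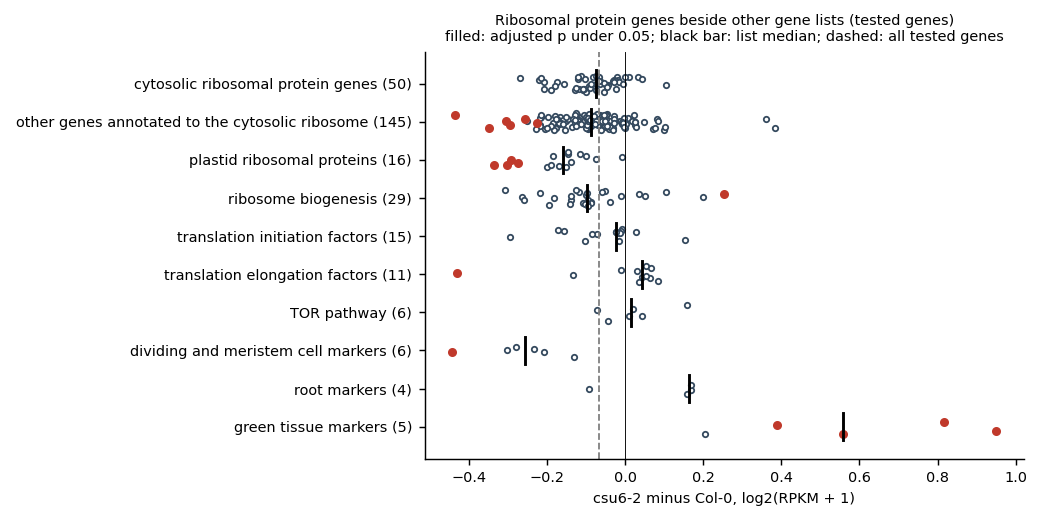
Difference between csu6-2 and Col-0 in log2(RPKM + 1) for the tested genes of each list (number in brackets), with genes past an adjusted p of 0.05 filled, list medians as black bars and the median of all tested genes dashed. The 50 cytosolic ribosomal protein genes hold no filled point and centre on the dashed line, while 4 of 5 green tissue markers and 4 of 16 plastid ribosomal protein genes are filled.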

How the data were processed

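Polyadenylated RNA of whole seedlings was sequenced, per the labels' protocols. The authors deposited, for each library, an RPKM value per gene rounded to 2 decimals; the unit was read from the values, and reads and read pairs cannot be told apart in it. The submitters' processing notes name HISAT2, edgeR 3.0.8 and TAIR10 without saying what each was used for. For the program that counted, its annotation and its use of strand, the labels give nothing; overlapping and antisense genes cannot be told apart.

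Genes with at least 1 RPKM in 3 or more of the 6 libraries (18885 of 32678) were compared on log2(RPKM + 1), csu6-2 minus Col-0, with limma 3.58.1 in R 4.3.3 (lmFit; eBayes with trend and robust, statmod 1.5.0), two-sided, with Benjamini-Hochberg adjustment over all tested genes and a threshold of 0.05. Fold changes on this scale understate the change of low genes. The fit was tested on simulated data. Sums, ratios and shares were compared with exact permutation tests over libraries. Per-library values were given for the members of families whose genes differ in direction or most in share, and for the highest and lowest levels. Other lists name at most 3 genes of lowest adjusted p, apart from the 4 called plastid genes. These plastid genes, the values of RPL3A and REIL2 and the ranges of RPL19A were chosen after values were seen. Alternatives were another pseudocount, other minimum levels, median-of-ratios scaling, a replicate block and leaving out each library. The members were listed by annotation, but they and the other lists were picked for description with earlier results of these data known.

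Depth was estimated from the lowest values of genes with exons under 600 bases, of which 72.4 to 77.8% lay within 0.1 read of a whole number up to 6; counts were not recovered, so no count test was run, and no intervals for counting error are given. Upstream windows, coding sequences and coordinates came from the RefSeq annotation of TAIR10.1.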

Additional observations from a re-analysis of the deposited data

How the results depend on the processing

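Precision is limited by 3 libraries per genotype, by unknown counts behind each value and, for close paralogues, by how reads were divided between copies. A pseudocount of 0.1, no minimum level and a minimum of 5 RPKM left 0 members called and turned no member's direction; RPP0A, under 5 RPKM, was not tested under the last. Median-of-ratios scaling gave 1050 genes called higher and 1128 lower among all tested, against 671 and 1771 on the deposited scale, 2 called lower over the other lists (leaving out the 160 cytosolic ribosome genes) against 6, 1 lower among those 160 against 6, a members' median of -0.00069 and a change of the members' sum of -1.06%; the cause was not tested. It also turned the sign of 18 members, none called: RPL5A 0.054, RPL5B 0.050, RPL7B 0.031, RPL8A 0.046, RPL10A 0.057, RPL10C 0.052, RPL11A 0.0080, RPL11C 0.043, RPL11D 0.058, RPL13B 0.025, RPL18C 0.0085, RPS2A 0.067, RPS3C 0.011, RPS5A 0.046, RPS5B 0.021, RPS18A 0.022, RPS18B 0.0086 and RPS18C 0.028. With a replicate block, 3 members were called lower (6%; RPL12A, RPL23C and RPS6A, limma adjusted p of 0.035, 0.018 and 0.038), against 11.4% of all tested genes called lower in that fit. The replicate numbers share only a number: the deviations of same-numbered libraries correlated at 0.20, 0.051 and 0.22, and not every library correlated best with its own number.

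Leaving out each library in turn gave 389 to 674 genes called higher and 859 to 1790 lower among all tested genes, 0 to 1 member called lower (RPL23C without csu6-2 replicate 3), 3 to 4 called higher and 2 to 8 lower over those other lists, 0 to 1 higher and 1 to 6 lower among the 160 cytosolic ribosome genes, and 6 to 15 of 39 paralogue shares without overlap, as fewer libraries overlap less readily (15 without csu6-2 replicate 3, 12 without Col-0 replicate 2 and 10 without Col-0 replicate 3, against 6 with all). The counts over all tested genes were over 1.5 times lower without csu6-2 replicate 2, csu6-2 replicate 3 or Col-0 replicate 2. The members' summed level differed by -0.155 to -0.119 percentage points, and the large-subunit over small-subunit ratio by -0.021 to 0.0021. Members whose uncalled log2 change took both signs were RPL3A (-0.052 to 0.055), RPL8A (-0.080 to 0.025), RPL10A (-0.031 to 0.0029), RPL11D (-0.063 to 0.058), RPSaB (-0.062 to 0.14), RPS2A (-0.052 to 0.075), RPS3B (-0.017 to 0.034), RPS5A (-0.072 to 0.039), RPS5B (-0.11 to 0.015) and RPS28A (-0.21 to 0.053).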
